A study of Homo sapiens with 9 samples.

Results

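The 9 transcription factor genes SNAI1, SNAI2, SNAI3, ZEB1, ZEB2, TWIST1, TWIST2, FOXC2 and PRRX1, best known for driving epithelial-mesenchymal transition (EMT), were followed across 3 related human breast epithelial cell lines. They were taken by gene symbol from a table of 62666 genes, in which each of the 9 had 1 row, and 7 of the 9 had enough counts to be tested. The study asked how gene expression differs between stages of breast cancer and sequenced polyadenylated RNA from 9 libraries, 3 for each line. MCF10A cells are immortalised breast epithelium that does not form tumours, MCF10AT1 carries activated HRAS introduced into MCF10A, and MCF10Ca1a is a tumour-forming line further along the same lineage, so each stage is represented by 1 line. The lines were untreated and shared a medium with 20 ng/mL epidermal growth factor, 500 ng/mL hydrocortisone, 100 ng/mL cholera toxin and 10 µg/mL insulin. MCF10A and MCF10Ca1a were kept in 5% horse serum and MCF10AT1 in 2.5%, so line and serum cannot be told apart in any comparison with MCF10AT1.

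In EMT, epithelial cells lose their junctions and polarity and take on mesenchymal traits. Snail-family and ZEB proteins are zinc-finger repressors that bind E-box motifs in promoters of epithelial genes such as CDH1 (E-cadherin), while TWIST proteins (basic helix-loop-helix), FOXC2 (forkhead) and PRRX1 (homeobox) are known mainly for promoting the mesenchymal side. SNAI2 is also known for its expression in basal mammary epithelial cells, and ZEB1 and ZEB2 stand in a mutually repressive loop with the miR-200 family of microRNAs.

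The epithelial label held in every line: none of 12 mammary epithelial markers was at or under 3 counts in all libraries of a line, and their summed level ran from 2990 to 4170 TPM (transcript abundance scaled by length and by a fixed library total) in MCF10A, 4130 to 4580 TPM in MCF10AT1 and 5490 to 5660 TPM in MCF10Ca1a. KRT19, however, was near that limit in MCF10A, at 2, 6 and 3 counts. The basal markers among the 12 did not share one direction: from MCF10A through MCF10AT1 to MCF10Ca1a, mean TPM was 205, 38.8 and 4.78 for KRT14, 1423, 1632 and 419.6 for KRT5, 670.1, 742 and 1829 for KRT17, and 26.0, 16.2 and 31.1 for TP63. In the same order it was 0.0566, 0.257 and 7.32 for KRT19 and 40.1, 169.7 and 389.8 for EPCAM. For KRT8 it was 110.5, 448.6 and 441.5, and for KRT18 256.7, 553.7 and 692.8. The summed level of 8 fibroblast markers was 52.7 to 60.1, 55.0 to 67.4 and 19.3 to 26.5 TPM in the same order, with COL1A2 and COL3A1 at or under 3 counts throughout and LUM and PDGFRA so in MCF10A and MCF10Ca1a. FAP (mean 49.7, 32.1 and 20.5 TPM) and DCN (3.61, 27.9 and 0.329 TPM) carried most of that sum, and DCN was 6.93-fold higher in MCF10AT1 than in MCF10A (edgeR adjusted p = 4.5e-11). The 5 endothelial markers summed to 0.757 to 0.988, 0.934 to 1.36 and 15.7 to 20.8 TPM, with CDH5 and VWF at or under 3 counts throughout and KDR and TEK so in MCF10Ca1a, where PECAM1 alone, at a mean of 18.7 TPM, made up nearly the whole sum. The 6 leukocyte markers summed to 15.9 to 22.4, 6.04 to 6.64 and 30.4 to 33.4 TPM, with PTPRC, CD3E and LYZ at or under 3 counts. CD68 carried most of that sum in MCF10Ca1a (mean 31.1 TPM), where CD14 was at 0.205 TPM beside 8.62 TPM in MCF10A. Libraries held 62.9 to 69.5 mega-counts in MCF10A and MCF10AT1 and 32.9 to 35.2 mega-counts in MCF10Ca1a, so low genes were measured less precisely in the tumour-forming line. In these bulk samples, fewer cells with a transcript and less transcript per cell cannot be told apart.

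SNAI1 rose and the other 6 factors that could be tested fell in MCF10Ca1a, whether it was set against MCF10A or MCF10AT1. TWIST2 and FOXC2, at 22.7 and 11.4 TPM on average in MCF10A, had 0.290 and 0.163 TPM in MCF10Ca1a, whereas SNAI2 kept 49.3 TPM and remained the most abundant factor. Between MCF10AT1 and MCF10A the differences were smaller, and SNAI1, TWIST1 and ZEB2 were higher while ZEB1 and TWIST2 were lower. The test was edgeR's quasi-likelihood test over 17910 genes, and a gene was called where its Benjamini-Hochberg adjusted p was below 0.05.

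In MCF10AT1 against MCF10A, 5 of the 7 tested factors were called, where 61.6% of all tested genes were called. Of the 7 tested factors, 3 were called higher, against 29.8% of all tested genes, and 2 were called lower, against 31.8%. In MCF10Ca1a against MCF10AT1, 7 of 7 were called with a background of 78.4%, 1 higher where 38% of all genes were higher and 6 lower where 40.3% were lower. In MCF10Ca1a against MCF10A the counts were likewise 7 of 7, 1 higher and 6 lower, with backgrounds of 80.9%, 39% and 41.9%. Most tested genes were called in these comparisons, so the counts say little beyond the sizes. The 7 factors' median log2 fold change was -2.17 in MCF10Ca1a against MCF10AT1 and -1.96 against MCF10A, beside -0.04 and -0.05 over all tested genes, whose median absolute change was 0.76 and 0.84. In MCF10AT1 against MCF10A the median was 0.14, beside 0.00 over all genes. The 3 comparisons share libraries and are not independent of each other.

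**Figure D1:**
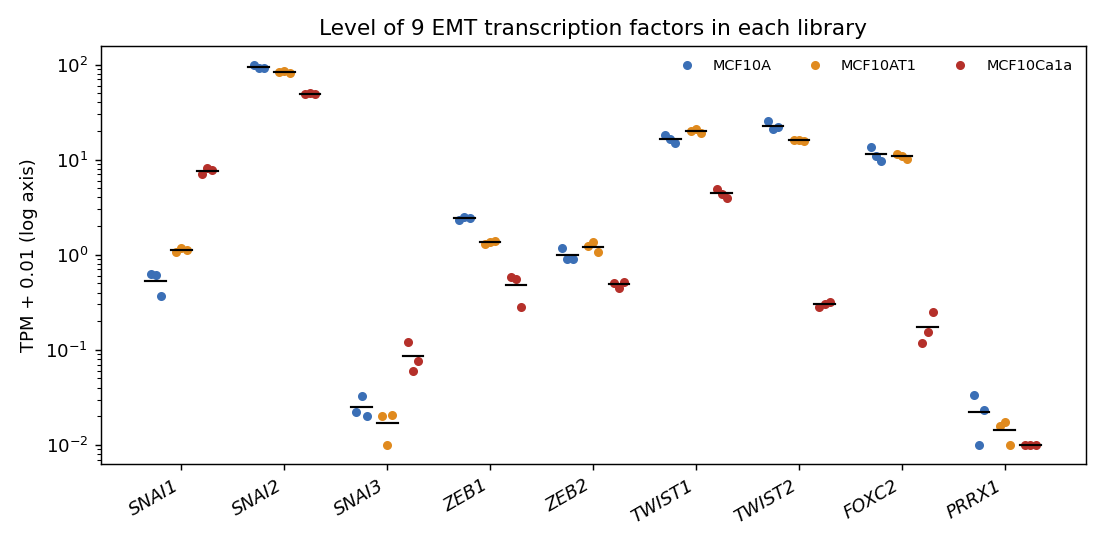
Level of each factor in each library, as TPM + 0.01 on a log axis, with points for the 3 libraries of a line and a bar at their mean. SNAI1 climbs from MCF10A to MCF10Ca1a, SNAI2 stays the highest in each line, and TWIST2 and FOXC2 drop below 1 TPM in MCF10Ca1a.

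The factors differed widely in level, which TPM, a unit scaled by transcript length, allows to be compared between genes. In MCF10A the order was SNAI2, TWIST2, TWIST1, FOXC2, ZEB1, ZEB2, SNAI1, SNAI3 and PRRX1, and the libraries of neighbours in this order overlapped only for SNAI3 and PRRX1. In MCF10AT1 TWIST1 stood above TWIST2, and neighbouring libraries overlapped for ZEB1 and ZEB2, for ZEB2 and SNAI1 and for SNAI3 and PRRX1. In MCF10Ca1a the order was SNAI2, SNAI1, TWIST1, ZEB2, ZEB1, TWIST2, FOXC2, SNAI3 and PRRX1, with overlap for ZEB2 and ZEB1, for ZEB1 and TWIST2 and for FOXC2 and SNAI3. SNAI1 thus moved from the 7th to the 2nd place, and TWIST2 from the 2nd to the 6th.

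Summed over the 9 genes, the factors' level was 148.5 ± 10.0 TPM (SD, n = 3) in MCF10A, 134.2 ± 3.60 TPM (SD, n = 3) in MCF10AT1 and 62.8 ± 1.29 TPM (SD, n = 3) in MCF10Ca1a. SNAI2 alone made up 63.5% ± 1.43 (SD, n = 3), 62.4% ± 0.309 (SD, n = 3) and 78.5% ± 0.302 (SD, n = 3) of that sum. The ratio of SNAI2 to SNAI1 ran from 153.7 to 259.5 over the MCF10A libraries, from 73.7 to 80.2 in MCF10AT1 and from 6.22 to 6.95 in MCF10Ca1a. These ranges did not overlap.

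SNAI1 (ENSG00000124216.4, chr20:49982999-49988886, plus strand) encodes Snail, the classical repressor of CDH1. Its level was 0.619, 0.595 and 0.354 TPM in the MCF10A libraries, 1.05, 1.16 and 1.10 TPM in MCF10AT1 and 6.99, 8.10 and 7.80 TPM in MCF10Ca1a. Each line lay wholly above the one before it. Fold changes here and below come from edgeR's fit of the counts scaled by library size, and need not equal the ratio of the TPM means. Each SE beside an edgeR value is the absolute log2 fold change divided by the square root of the test's F statistic. It may understate the error of folds that rest on few counts, such as those of TWIST2 and FOXC2 in MCF10Ca1a. By edgeR's quasi-likelihood test SNAI1 rose 2.37-fold in MCF10AT1 against MCF10A (log2 fold change 1.24, SE 0.17, adjusted p = 1.92e-05), a value that was 0.47 on log2(TPM + 1) and still passed. It rose 5.69-fold in MCF10Ca1a against MCF10AT1 (2.51, SE 0.14, edgeR adjusted p = 9.44e-10) and 13.5-fold against MCF10A (3.75, SE 0.15, edgeR adjusted p = 2.97e-11). The estimated counts behind these values were 34 to 50 in MCF10A, 99 to 110 in MCF10AT1 and 294 to 333 in MCF10Ca1a, the last from libraries of smaller total.

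SNAI2 (ENSG00000019549.13, chr8:48917604-48921740, minus strand) encodes Slug. It was measured at 99.1, 91.5 and 91.9 TPM in MCF10A, at 83.9, 85.7 and 81.7 TPM in MCF10AT1 and at 48.6, 50.4 and 49.0 TPM in MCF10Ca1a. In TPM the 3 lines did not overlap. In the edgeR count test SNAI2 was 2.03-fold lower in MCF10Ca1a than in MCF10AT1 (log2 -1.02, SE 0.05, adjusted p = 1.47e-10) and 2.08-fold lower than in MCF10A (-1.06, SE 0.05, edgeR adjusted p = 7.6e-11). MCF10AT1 and MCF10A overlapped in CPM (counts scaled by library size) and did not pass the test (-0.03, SE 0.05, edgeR adjusted p = 0.585). On log2(TPM + 1) with limma the same difference passed at -0.17 (adjusted p = 0.0173), on a scale on which the median of all genes itself lay at -0.09.

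SNAI3 (ENSG00000185669.6, chr16:88677682-88686493, minus strand), the least studied Snail gene, was close to the detection limit. The MCF10A libraries held 1, 2 and 1 estimated counts, the MCF10AT1 libraries 1, 0 and 1, and the MCF10Ca1a libraries 5, 2 and 3, or at most 0.112 TPM, and did not pass the filter on low counts. Without that filter edgeR gave a log2 fold change of 2.88 in MCF10Ca1a against MCF10AT1 (adjusted p = 0.0234) and 2.05 against MCF10A (adjusted p = 0.0826). SNAI3-AS1 (chr16:88663298-88687186, plus strand), annotated on the opposite strand across the whole of SNAI3, was far more abundant, at 0.332 to 0.506 TPM in MCF10A, 0.712 to 0.949 TPM in MCF10AT1 and 6.72 to 8.47 TPM in MCF10Ca1a. SNAI3-AS1 rose 2.29-fold in MCF10AT1 against MCF10A (edgeR adjusted p = 5.12e-05) and 17.2-fold in MCF10Ca1a against MCF10A (edgeR adjusted p = 1.78e-11). The library kit marks strand, but whether the quantification used it is not given in the sources used here, so reads of SNAI3 and of SNAI3-AS1 may not be fully told apart. The same limit holds where ZEB1 overlaps ZEB1-AS1 and FOXC2 overlaps FOXC2-AS1.

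**Figure D2:**
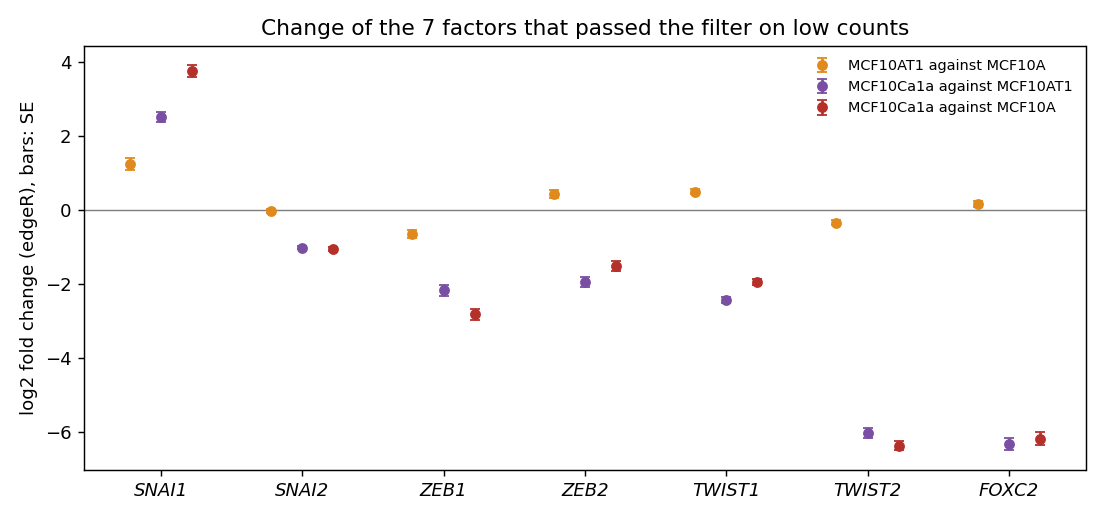
Fitted log2 fold change of the 7 factors with enough counts, by edgeR, for the 3 comparisons, with bars of 1 SE derived from the F statistic of the test. SNAI1 lies above 0 in each comparison, while the other 6 lie between -1.02 and -6.37 in both comparisons with MCF10Ca1a.

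ZEB1 (ENSG00000148516.23, chr10:31318495-31529814, plus strand) encodes a zinc-finger and homeodomain repressor of CDH1 and other polarity genes. Its level was 2.30, 2.51 and 2.43 TPM in MCF10A, 1.29, 1.35 and 1.39 TPM in MCF10AT1 and 0.579, 0.543 and 0.273 TPM in MCF10Ca1a. Each line lay below the one before it without overlap, and the third MCF10Ca1a library was the lowest. ZEB1 fell 1.57-fold in MCF10AT1 against MCF10A (log2 -0.65, SE 0.12, edgeR adjusted p = 0.000272). It fell 4.52-fold in MCF10Ca1a against MCF10AT1 (-2.17, SE 0.16, edgeR adjusted p = 1.39e-08) and 7.1-fold against MCF10A (-2.83, SE 0.15, edgeR adjusted p = 5.2e-10).

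ZEB2 (ENSG00000169554.23, chr2:144364364-144524583, minus strand), its paralogue with overlapping targets, was at 1.15, 0.899 and 0.900 TPM in MCF10A, 1.22, 1.35 and 1.05 TPM in MCF10AT1 and 0.495, 0.432 and 0.511 TPM in MCF10Ca1a. MCF10Ca1a lay below both other lines, which overlapped each other in TPM. ZEB2 fell 3.89-fold in MCF10Ca1a against MCF10AT1 (log2 -1.96, SE 0.13, edgeR adjusted p = 7.17e-09) and 2.88-fold against MCF10A (-1.53, SE 0.13, edgeR adjusted p = 1.09e-07). In MCF10AT1 against MCF10A ZEB2 was 1.35-fold higher (0.43, SE 0.11, edgeR adjusted p = 0.0033), while ZEB1 was lower. That call was lost with the authors' scaled counts (0.42, edgeR adjusted p = 0.0699) and with limma on TPM, where ZEB2 was at 0.15 on log2(TPM + 1) (adjusted p = 0.153, or 0.252 without a filter) and at 0.27 on log2(TPM + 0.1) (adjusted p = 0.191).

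The 3′ UTRs of ZEB1 and ZEB2 are the known targets of the miR-200 family, so the mature microRNAs are shown first, in 2 groups that differ in the seed (bases 2 to 8, in capitals). The sequences are from RefSeq (GRCh38.p14). The first group shares AAUACUG, the second AACACUG, and the unrelated miR-205, also known to act on ZEB mRNAs, has CCUUCAU.
hsa-miR-200b-3p: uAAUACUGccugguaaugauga
hsa-miR-200c-3p: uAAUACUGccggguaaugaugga
hsa-miR-429: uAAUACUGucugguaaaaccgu
hsa-miR-200a-3p: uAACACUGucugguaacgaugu
hsa-miR-141-3p: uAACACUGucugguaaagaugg
hsa-miR-205-5p: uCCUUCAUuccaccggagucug

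The match to the first seed, CAGTATT, occurred 6 times in the 3′ UTR of ZEB1 (ZEB1-202, 2549 bases) and 5 times in that of ZEB2 (ZEB2-245, 5370 bases), read on the sense strand of the GENCODE 29 annotation. The sites are given with their flanks and the match in capitals, in 5′ to 3′ order.
ZEB1 site 1: ttttatcttatCAGTATTatca
ZEB1 site 2: taaatccgcttCAGTATTttat
ZEB1 site 3: gtgccatttctCAGTATTttca
ZEB1 site 4: tttttacctatCAGTATTattt
ZEB1 site 5: ttcaaacctggCAGTATTaata
ZEB1 site 6: ttcatcattatCAGTATTttct
ZEB2 site 1: ctaccatacatCAGTATTttta
ZEB2 site 2: ctacaatgcatCAGTATTatga
ZEB2 site 3: agcacccatgtCAGTATTagaa
ZEB2 site 4: attaattttgtCAGTATTacac
ZEB2 site 5: actgtagtgtaCAGTATTatag

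As many CAGTATT matches as in ZEB1 were found in 0.0231% of 4333 genes whose 3′ UTR is at least as long, read over the same length, and 27.2% of those genes had any. For ZEB2 the share was 0.188% of 1064 genes, with 48.4% having any. The match to the second seed, CAGTGTT, occurred 3 times in ZEB1 and 4 times in ZEB2, and as many were found in 0.969% and 1.13% of the same genes. ATGAAGG, the match to the miR-205 seed, occurred once in ZEB1 and was absent from the ZEB2 3′ UTR. Among the other 7 factors SNAI2 had 1 CAGTATT and the remaining 6 had none of the 3 matches. A match is a run of letters and not a measured site of action.

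Mature microRNAs are not polyadenylated and were not measured, and the rows of MIR200A, MIR200B and MIR429 held 0 counts. The longer RNAs from which some of them are cut could be read. MIR200CHG, the host RNA of miR-200c and miR-141, was at 7.46 to 7.76 TPM in MCF10A, 4.80 to 5.92 TPM in MCF10AT1 and 19.2 to 20.9 TPM in MCF10Ca1a. It was 1.26-fold lower in MCF10AT1 than in MCF10A (edgeR adjusted p = 0.0401) and rose 3.11-fold in MCF10Ca1a against MCF10AT1 (edgeR adjusted p = 3.42e-08) and 2.47-fold against MCF10A (edgeR adjusted p = 2.65e-07). MIR205HG, the host RNA of miR-205, had 431.5 to 460.3 TPM in MCF10A, 187.6 to 191.3 TPM in MCF10AT1 and 978.2 to 1025 TPM in MCF10Ca1a. MIR205HG fell 2.22-fold in MCF10AT1 against MCF10A (edgeR adjusted p = 1.52e-09) and rose 1.93-fold in MCF10Ca1a against MCF10A (edgeR adjusted p = 2.87e-09). MIR34AHG, the host RNA of miR-34a, a microRNA known to act on SNAI1 mRNA, was at 1.70 to 2.50 TPM in MCF10A, 2.24 to 2.96 TPM in MCF10AT1 and 0.134 to 0.357 TPM in MCF10Ca1a. MIR34AHG fell 22.5-fold in MCF10Ca1a against MCF10A (edgeR adjusted p = 6.78e-09), and MCF10AT1 and MCF10A overlapped (log2 0.41, SE 0.18, edgeR adjusted p = 0.0596). In MCF10Ca1a MIR200CHG and MIR205HG were at their highest, both ZEB mRNAs at their lowest, MIR34AHG at its lowest and SNAI1 at its highest. In MCF10AT1 against MCF10A both MIR200CHG and MIR205HG fell, and the ZEB mRNAs parted. There ZEB1 fell too (1.57-fold, edgeR adjusted p = 0.000272), while ZEB2 was higher (1.35-fold, edgeR adjusted p = 0.0033). The ZEB2 call was lost with the scaled counts and with limma on TPM, as given above. A link between these RNAs was not tested.

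ZEB1 was set beside ZEB1-AS1 (chr10:31206278-31320447, minus strand), an antisense RNA whose annotated span overlaps the start of ZEB1. ZEB1-AS1 was at 2.15, 2.81 and 3.10 TPM in MCF10A, 3.97, 3.21 and 3.77 TPM in MCF10AT1 and 3.79, 3.40 and 4.12 TPM in MCF10Ca1a. It rose 1.86-fold in MCF10AT1 against MCF10A (edgeR adjusted p = 0.000102) and 1.58-fold in MCF10Ca1a against MCF10A (edgeR adjusted p = 0.00122), and its libraries overlapped between MCF10Ca1a and MCF10AT1 (log2 -0.24, SE 0.15, edgeR adjusted p = 0.148). The 2 RNAs of this start region thus had opposite signs in both comparisons with MCF10A. ZEB2-AS1 had at most 1 count in any library.

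The region before the ZEB1 start is shown because ZEB1 fell and ZEB1-AS1 is annotated across it. It covers 250 bases (chr10:31318167-31318416, plus strand, GRCh38.p14, RefSeq), with capitals for the Snail and ZEB E-box, searched as CAGGTG and its reverse complement CACCTG.
ZEB1 promoter: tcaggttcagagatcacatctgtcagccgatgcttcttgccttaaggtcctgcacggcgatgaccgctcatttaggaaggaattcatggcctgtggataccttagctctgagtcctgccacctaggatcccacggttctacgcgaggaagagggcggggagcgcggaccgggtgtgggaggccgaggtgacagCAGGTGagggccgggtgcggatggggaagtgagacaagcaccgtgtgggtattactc

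It held 1 E-box, 57 bases before the start. Over windows of 300 bases (250 before to 50 after the start), 20.6% of 35116 RefSeq promoters had at least 1. Of the factors, ZEB1, ZEB2, TWIST2 and PRRX1 had a promoter in the table, and ZEB1 was the 1 of these 4 with the motif.

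TWIST1 (ENSG00000122691.13, chr7:19020991-19117672, minus strand) and TWIST2 (ENSG00000233608.4, chr2:238848032-238910543, plus strand) encode closely related basic helix-loop-helix factors that pair with E proteins. TWIST1 had 18.0, 16.4 and 14.8 TPM in MCF10A, 20.1, 20.8 and 19.1 TPM in MCF10AT1 and 4.89, 4.39 and 3.93 TPM in MCF10Ca1a. No line overlapped another, and MCF10AT1 was the highest. TWIST1 was 1.4-fold higher in MCF10AT1 than in MCF10A (log2 0.49, SE 0.07, edgeR adjusted p = 4.01e-05). It fell 5.44-fold in MCF10Ca1a against MCF10AT1 (-2.44, SE 0.09, edgeR adjusted p = 1.11e-11) and 3.88-fold against MCF10A (-1.96, SE 0.09, edgeR adjusted p = 8.22e-11).

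TWIST2 had 25.4, 20.8 and 21.8 TPM in MCF10A and 16.0, 16.0 and 15.8 TPM in MCF10AT1. In MCF10Ca1a it had 0.270, 0.291 and 0.310 TPM, from 7, 7 and 8 estimated counts. It fell 1.27-fold in MCF10AT1 against MCF10A (log2 -0.35, SE 0.06, edgeR adjusted p = 0.000343). The fall in MCF10Ca1a was 65.2-fold against MCF10AT1 (-6.03, SE 0.13, edgeR adjusted p = 1.48e-13) and 82.8-fold against MCF10A (-6.37, SE 0.13, edgeR adjusted p = 3.2e-14). TWIST2 was the more abundant paralogue in each MCF10A library and TWIST1 in each MCF10AT1 and MCF10Ca1a library. Within its 300-base promoter TWIST2 had 29 CpG dinucleotides, ZEB1 17, ZEB2 14 and PRRX1 11, beside a median of 14 over all promoters, among which TWIST2 stood at percentile 75.8.

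FOXC2 (ENSG00000176692.8, chr16:86566829-86569728, plus strand) encodes a forkhead factor known for its role in lymphatic vessels and as a promoter of mesenchymal traits downstream of other EMT factors. It was measured at 13.5, 10.9 and 9.74 TPM in MCF10A and at 11.5, 10.99 and 10.1 TPM in MCF10AT1, which overlapped. In MCF10Ca1a it was at 0.107, 0.144 and 0.239 TPM, from 5, 6 and 11 estimated counts. FOXC2 fell 80.1-fold in MCF10Ca1a against MCF10AT1 (log2 -6.32, SE 0.17, edgeR adjusted p = 6.49e-13) and 72.5-fold against MCF10A (-6.18, SE 0.17, edgeR adjusted p = 4.75e-13). The difference between MCF10AT1 and MCF10A did not pass (0.14, SE 0.08, edgeR adjusted p = 0.143), it was -0.05 on log2(TPM + 1), and without the first MCF10A library it passed (0.23, edgeR adjusted p = 0.011).

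FOXC2-AS1 (chr16:86565145-86567761, minus strand), the antisense RNA that overlaps the start of FOXC2, was at 2.97, 3.02 and 4.24 TPM in MCF10A and 3.64, 3.35 and 5.17 TPM in MCF10AT1, and had 0 counts in the 3 MCF10Ca1a libraries. Taking 3 counts per library as the limit, FOXC2-AS1 was at least 7.87-fold lower in MCF10Ca1a than in MCF10AT1 (edgeR adjusted p = 2.26e-06) and at least 6.1-fold lower than in MCF10A (edgeR adjusted p = 5e-06). FOXL1, the next forkhead gene, starts 9.54 kb downstream of the FOXC2 start. It was at 1.39 to 1.64 TPM in MCF10A, 0.130 to 0.174 TPM in MCF10AT1 and 5.36 to 7.38 TPM in MCF10Ca1a. FOXL1 fell 7.85-fold in MCF10AT1 against MCF10A (edgeR adjusted p = 1.53e-10) and rose 27.7-fold in MCF10Ca1a against MCF10AT1 (edgeR adjusted p = 4.06e-13). FOXC2 and FOXC2-AS1 were thus low together in MCF10Ca1a, where FOXL1 was at its highest, but since the spans of the first pair overlap and the use of strand is not given, their values may not be separate measurements.

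**Figure D3:**
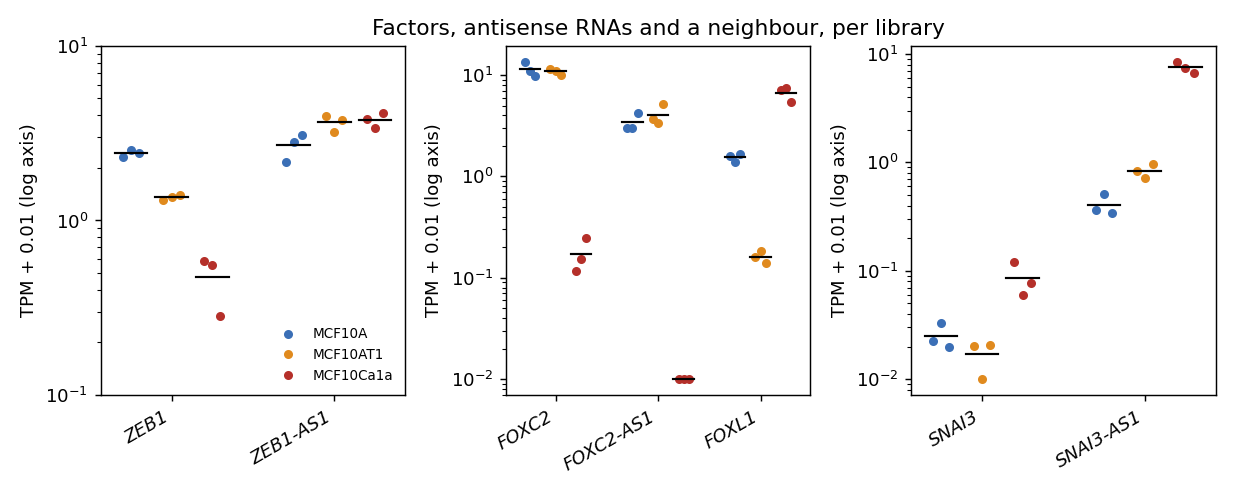
TPM + 0.01 on a log axis for ZEB1, FOXC2 and SNAI3 beside their antisense RNAs and, for FOXC2, the neighbouring gene FOXL1, with points for libraries and bars for means. In MCF10Ca1a ZEB1 is low while ZEB1-AS1 is not, FOXC2 and FOXC2-AS1 are both low with FOXL1 high, and SNAI3-AS1 stands far above SNAI3.

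PRRX1 (ENSG00000116132.12, chr1:170662728-170739419, plus strand), a homeobox factor of mesenchymal cells, was not detectable above the limit. The MCF10A libraries held 3, 0 and 2 estimated counts of it, the MCF10AT1 libraries 1, 1 and 0, and the MCF10Ca1a libraries 0, 0 and 0, at or under 3 counts in each library. No fold change is given.

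The transcript table added detail for the factors with more than 1 transcript. For SNAI2, the coding transcript SNAI2-201 made up 92.3% to 94.7% of the gene's TPM in MCF10A, 96.5% to 97.2% in MCF10AT1 and 96.2% to 97.4% in MCF10Ca1a, and most of the rest was SNAI2-204, annotated as a retained intron. SNAI2-204 took 5.23% to 7.34%, 2.69% to 3.45% and 2.63% to 3.59% in the same order, so MCF10A stood apart from the other two. Shares were tested with limma as log2 ratios to the other transcripts of the gene. SNAI2-201 rose by 1.07 (SE 0.21, adjusted p = 0.00877) and SNAI2-204 fell by 1.05 (SE 0.23, adjusted p = 0.0136) in MCF10Ca1a against MCF10A. As these transcripts make up nearly the whole gene and each is set against the rest, the 2 calls mirror each other and are 1 change in the balance of SNAI2. Of the factors' transcripts 4 could be tested in this comparison, in which 24.4% of 59386 transcripts were called. In MCF10AT1 against MCF10A, where 2.39% of 59809 were called, SNAI2-201 passed (1.09, SE 0.21, limma adjusted p = 0.0441) and SNAI2-204 did not (-1.07, SE 0.23, limma adjusted p = 0.059). That 1 call became 0 with the replicate number as a block, with a smaller pseudocount, with a lower limit on transcript level and without 8 of the 9 libraries in turn, MCF10Ca1a replicate 2 being the exception. In MCF10Ca1a against MCF10AT1 none of the factors' transcripts passed, with 19.2% of 59663 called and an SNAI2-201 change of -0.01 (limma adjusted p = 0.977).

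TWIST1-201 carried 94.3% to 95.9%, 95.3% to 96.7% and 96.6% to 100% of TWIST1 in the 3 lines, and TWIST2-202 carried 92.4% to 94.0%, 93.5% to 94.4% and 75.0% to 100% of TWIST2, the last from few counts. ZEB1-201 held 56.7% to 59.5% of ZEB1 in MCF10A and 53.2% to 66.9% in MCF10AT1, but between 0% and 76.7% in MCF10Ca1a, where the level of ZEB1 was too low to divide between its transcripts. SNAI1, SNAI3 and FOXC2 had a single transcript each.

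For each factor with at least 1 TPM in some line, the genes nearest in profile were found by the root mean square (RMS) difference of centred log2 CPM over the 9 libraries, a description over 3 lines of 3 libraries. SNAI1 was nearest to SERPINA5 (RMS 0.093, Pearson's r 0.997) and VSIR (RMS 0.108). SNAI2 lay nearest to DYNC1I2 (RMS 0.0438) and HAT1 (0.0458), ZEB1 to CACNB3 (0.0837) and SFXN2 (0.107), and ZEB2 to ZNF48 (0.0648) and TNFSF9 (0.0664). TWIST1 was nearest to ADD3 (RMS 0.0833) and APH1B (0.102), TWIST2 to CA2 and ZBED2 (both 0.122), and FOXC2 to DSEL (0.127) and MSLN (0.143). Pearson's r was between 0.995 and 0.999 for these 14 genes, none of which is another of the factors.

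Genes whose body lies within 500 kb of a factor were read beside it. Around SNAI1, 14 of 16 tested neighbours were higher and 1 lower in MCF10Ca1a against MCF10A, where 39% of all tested genes were higher and 41.9% lower, with a median log2 fold change of 0.94 beside -0.05 over all genes and 3.75 for SNAI1 itself. Against MCF10AT1 the counts were again 14 higher and 1 lower, beside 38% and 40.3% of all genes (median 1.13, and 2.51 for SNAI1). They were 1 higher and 5 lower in MCF10AT1 against MCF10A, beside 29.8% and 31.8% (median -0.05, and 1.24 for SNAI1).

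SNAI3 also had 16 tested neighbours, of which 13 were higher and 2 lower in MCF10Ca1a against MCF10A, beside the same 39% and 41.9% of all genes (median 1.30, and -0.05 over all genes). Near the factors that fell, the neighbours did not share one direction. The 1 tested neighbour of SNAI2, CLXN, had 0 counts in MCF10Ca1a and fell with it, at least 31.3-fold against MCF10AT1 and at least 3.75-fold against MCF10A, with 3 counts per library as the limit. Of the 5 tested neighbours of ZEB1, 1 was higher and 2 lower in MCF10Ca1a against MCF10A (median 0.10). HDAC9, the 1 tested neighbour of TWIST1 and known to hold enhancers of TWIST1, was at 0.353 to 0.446 TPM in MCF10A, 3.01 to 3.24 TPM in MCF10AT1 and 14.8 to 16.3 TPM in MCF10Ca1a. It rose 7.56-fold in MCF10AT1 against MCF10A (edgeR adjusted p = 4.51e-12) and 30.9-fold in MCF10Ca1a against MCF10A (edgeR adjusted p = 5.2e-15), while TWIST1 fell in the second of these comparisons. GTDC1, the 1 tested neighbour of ZEB2, had a log2 fold change of 1.47 in MCF10Ca1a against MCF10A, opposite in sign to ZEB2. Of the 4 tested neighbours of TWIST2, 3 were lower and 1 higher in MCF10Ca1a against MCF10A, with a median of -0.42 beside -6.37 for TWIST2.

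**Figure D4:**
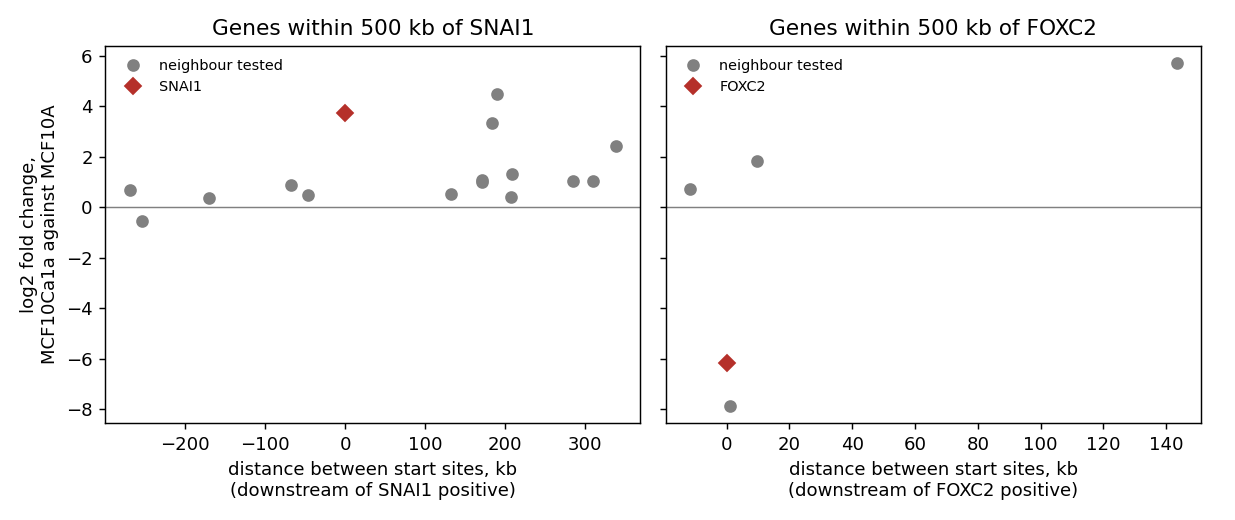
Fitted log2 fold change in MCF10Ca1a against MCF10A by edgeR for SNAI1, FOXC2 and the tested neighbours reported here, against the distance between start sites in kb. Most genes around SNAI1 lie above 0, and around FOXC2 only FOXC2-AS1, whose fitted value rests on 0 counts in MCF10Ca1a, lies with it.

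The genes that the Snail, ZEB and TWIST factors are known to act on were read next, from lists chosen with earlier results of these data known. CDH1, the E-cadherin gene, was at 52.8, 38.4 and 33.4 TPM in MCF10A, 38.4, 37.2 and 36.0 TPM in MCF10AT1 and 229.2, 227.3 and 237.8 TPM in MCF10Ca1a. It rose 5.15-fold in MCF10Ca1a against MCF10A (log2 2.37, SE 0.10, edgeR adjusted p = 2.9e-11), in the line where SNAI1 was highest and ZEB1, ZEB2, TWIST1, TWIST2, FOXC2 and SNAI2 were lowest. Between MCF10AT1 and MCF10A CDH1 differed by -0.01 (SE 0.09, edgeR adjusted p = 0.959), a value whose sign changed under 6 other settings, and without the first MCF10A library it was 0.14 (edgeR adjusted p = 0.0283).

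VIM (vimentin, an intermediate filament protein of mesenchymal cells) was at 674.5 to 918.6 TPM in MCF10A, 341.9 to 363.0 TPM in MCF10AT1 and 111.2 to 113.2 TPM in MCF10Ca1a. It fell 1.96-fold in MCF10AT1 (edgeR adjusted p = 2.37e-08) and 7.58-fold in MCF10Ca1a (edgeR adjusted p = 1.89e-13) against MCF10A. CDH2 (N-cadherin) had 3.40 to 5.45, 4.43 to 4.98 and 1.56 to 1.81 TPM in the 3 lines, and FN1 (fibronectin) 13.5 to 21.2, 14.2 to 17.4 and 4.35 to 5.15 TPM. Both fell in MCF10Ca1a against MCF10A, CDH2 by 1.48 on the log2 scale (edgeR adjusted p = 9.54e-08) and FN1 by 1.82 (edgeR adjusted p = 1.4e-09). In MCF10AT1 against MCF10A CDH2 was at 0.23 (edgeR adjusted p = 0.0786) and FN1 at 0.03 (edgeR adjusted p = 0.805), and both passed without the first MCF10A library, at 0.38 (edgeR adjusted p = 0.00158) and 0.19 (edgeR adjusted p = 0.00772).

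Of 28 epithelial genes known as repressed targets, 26 were tested. In MCF10Ca1a against MCF10A 21 rose and 5 fell (median log2 1.13), beside 39% and 41.9% of all tested genes. In MCF10Ca1a against MCF10AT1 18 rose and 6 fell (0.74), beside 38% and 40.3%, and in MCF10AT1 against MCF10A 15 rose and 6 fell (0.49), beside 29.8% and 31.8%. GRHL2, a transcription factor that supports epithelial genes and is known to repress ZEB1, was listed at 0 TPM in the MCF10A libraries and had a mean of 6.37 TPM in MCF10AT1 and 4.24 TPM in MCF10Ca1a. With 3 counts per library as the limit, GRHL2 was at least 601-fold higher in MCF10AT1 (edgeR adjusted p = 6.04e-14) and at least 328-fold higher in MCF10Ca1a (edgeR adjusted p = 8.56e-14) than in MCF10A. The tight-junction gene CLDN4 had a mean of 1.09 TPM in MCF10A and 156 TPM in MCF10Ca1a, and in the count test rose 101-fold (edgeR adjusted p = 2.1e-15). The 2 that fell most in MCF10Ca1a against MCF10A were MUC1, a membrane mucin (27.8-fold, edgeR adjusted p = 6.96e-14), and GRHL3, a relative of GRHL2 (9.53-fold, edgeR adjusted p = 1.37e-09).

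Of 25 mesenchymal genes known as activated targets, 20 were tested. In MCF10Ca1a against MCF10A 3 rose and 14 fell (median log2 -1.65), beside 39% and 41.9% of all tested genes. Of the same genes 3 rose and 12 fell in MCF10AT1 against MCF10A (-0.60), beside 29.8% and 31.8%. In MCF10Ca1a against MCF10AT1 8 rose and 11 fell (-0.66), beside 38% and 40.3%, so that the share that rose was near that of all genes. POSTN, a matrix gene, had 0 TPM in MCF10Ca1a and so fell at least 81.1-fold from MCF10A (edgeR adjusted p = 1.38e-11). MMP9, a matrix protease, fell 152-fold (edgeR adjusted p = 7.65e-13), a size that rests on 3, 3 and 4 counts in MCF10Ca1a. LOX, a collagen cross-linking enzyme (2.73-fold, edgeR adjusted p = 1.01e-10), and ITGA5, the fibronectin receptor subunit (2.65-fold, edgeR adjusted p = 2.16e-09), rose most.

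**Figure D5:**
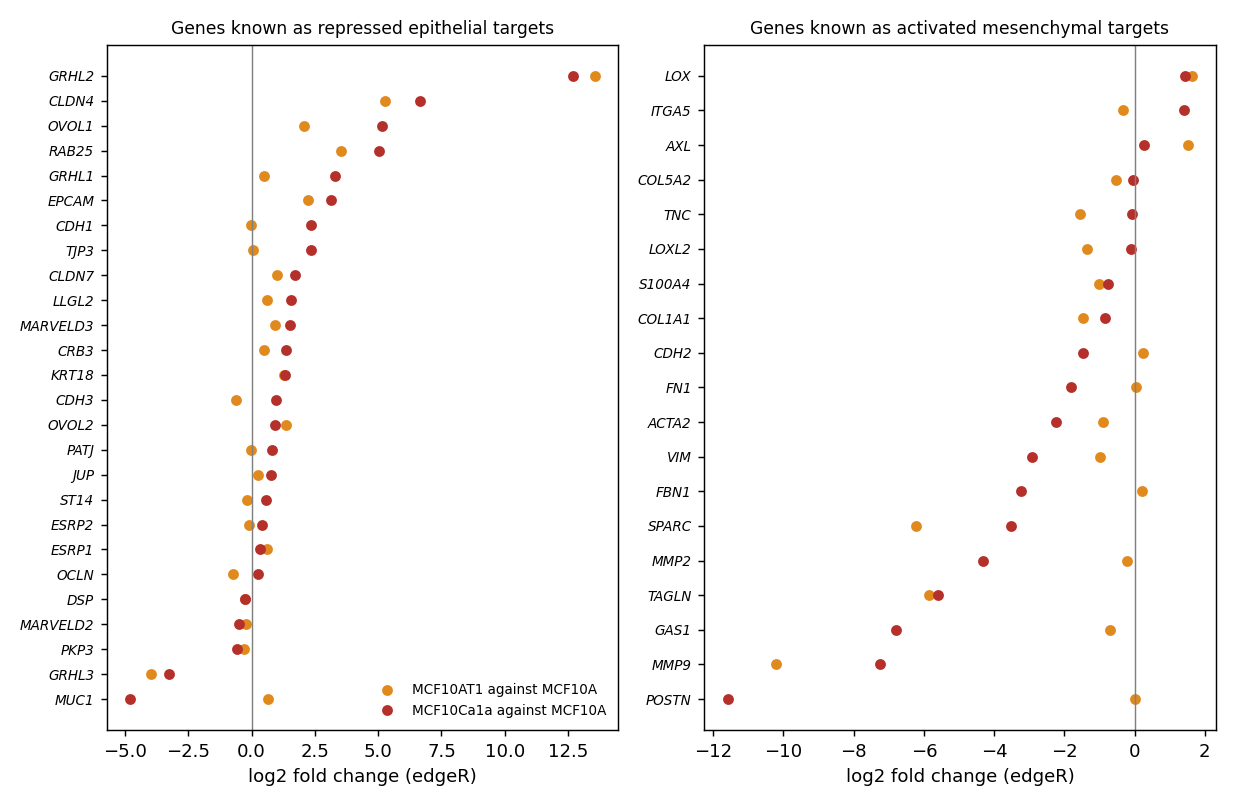
Fitted log2 fold change by edgeR of the epithelial and mesenchymal target genes reported here, for MCF10AT1 and MCF10Ca1a against MCF10A, ordered by the second. In MCF10Ca1a 21 epithelial genes lie above 0 and most mesenchymal genes lie below it. The fitted values of GRHL2, of POSTN and GAS1 in MCF10Ca1a and of MMP9 in MCF10AT1 rest on a line at or under 3 counts. That of MMP9 in MCF10Ca1a rests on 3, 3 and 4 counts.

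The promoters of 2 epithelial targets are shown because they hold several E-boxes and the genes moved in opposite directions. CRB3, a polarity gene known as a ZEB1 target, had 5 E-boxes in the 250 bases before its start (chr19:6464021-6464270, plus strand, GRCh38.p14, RefSeq), and MUC1 had 2 that nearly abut (chr1:155192916-155193165, minus strand). Capitals mark CAGGTG or CACCTG.
CRB3 promoter: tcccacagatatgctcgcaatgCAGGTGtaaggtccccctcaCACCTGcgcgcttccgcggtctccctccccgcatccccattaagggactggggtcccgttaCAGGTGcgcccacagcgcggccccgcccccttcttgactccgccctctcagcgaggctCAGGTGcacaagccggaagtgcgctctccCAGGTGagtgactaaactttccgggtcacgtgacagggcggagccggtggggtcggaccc
MUC1 promoter: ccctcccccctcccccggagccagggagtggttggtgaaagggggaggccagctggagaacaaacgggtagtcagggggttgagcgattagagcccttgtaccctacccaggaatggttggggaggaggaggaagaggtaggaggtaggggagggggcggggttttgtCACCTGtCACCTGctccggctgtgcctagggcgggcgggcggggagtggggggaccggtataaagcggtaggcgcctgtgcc

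CRB3 was at 7.71 to 10.7 TPM in MCF10A, 11.1 to 12.1 TPM in MCF10AT1 and 21.9 to 25.5 TPM in MCF10Ca1a, and rose 2.58-fold in MCF10Ca1a against MCF10A (edgeR adjusted p = 1.51e-08). MUC1 was at 31.5 to 43.8, 51.6 to 53.6 and 1.12 to 1.72 TPM in the same order. RefSeq gave a promoter for 15 epithelial targets, CDH1 not among them. Of these, 8 (53.3%) held the motif and 40.0% held it more than once, beside 20.6% and 3.49% of all promoters. Their median CpG count was 23 beside 14. The list is of genes known as targets of repressors that bind this motif. A higher share is therefore not independent of how the list was made, and nothing is concluded from it. Of 13 mesenchymal targets 2 (15.4%) held the motif. Over all tested genes with a promoter in the table, 42.6% of the 2266 with an E-box were higher and 42.7% lower in MCF10Ca1a against MCF10A, beside 39.2% and 45.4% of the 9725 without.

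Proteins that work with the factors were read from a list of corepressors, histone modifiers, E proteins and their inhibitors. Of 25 tested, 5 rose and 18 fell in MCF10Ca1a against MCF10A (median log2 -0.39), where 39% and 41.9% of all tested genes did. Against MCF10AT1 10 rose and 12 fell (-0.11), beside 38% and 40.3% of all genes, and in MCF10AT1 against MCF10A 2 rose and 17 fell (-0.33), beside 29.8% and 31.8%. EP300, an acetyltransferase, rose 3.42-fold (edgeR adjusted p = 7.86e-12) and ID2, which holds E proteins off DNA, 2.36-fold (edgeR adjusted p = 2.36e-07) in MCF10Ca1a against MCF10A. WTIP, a LIM protein that binds Snail, fell 6.6-fold (edgeR adjusted p = 7.88e-10) and the acetyltransferase KAT2B 6.42-fold (edgeR adjusted p = 2.68e-11) in the same comparison.

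Snail and Twist proteins are short-lived, and RNA levels do not show their amounts. Of 28 tested genes that phosphorylate, ubiquitinate or stabilise these proteins, 14 rose and 11 fell in MCF10Ca1a against MCF10A (median log2 0.11), beside 39% and 41.9% of all tested genes, 12 rose and 13 fell against MCF10AT1 (-0.02), beside 38% and 40.3%, and 7 rose and 10 fell in MCF10AT1 against MCF10A (0.05), beside 29.8% and 31.8%. Nothing particular to the list is read from these counts. GSK3B, the kinase that marks Snail for degradation, rose 2.15-fold (edgeR adjusted p = 8.55e-10) and CSNK2A1 2.38-fold (edgeR adjusted p = 7.47e-10) in MCF10Ca1a against MCF10A. PRKD1, a kinase that phosphorylates Snail, fell 17.3-fold (edgeR adjusted p = 1.83e-11) and the Snail phosphatase CTDSP1 4.24-fold (edgeR adjusted p = 4.64e-13).

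Of 32 tested signals known to induce the factors, 15 rose and 14 fell in MCF10Ca1a against MCF10A (median log2 0.00), beside 39% and 41.9% of all tested genes, 12 rose and 15 fell against MCF10AT1 (-0.12), beside 38% and 40.3%, and 12 rose and 10 fell in MCF10AT1 against MCF10A (0.02), beside 29.8% and 31.8%. The ligand TGFB2 rose 6.87-fold in MCF10Ca1a against MCF10A (edgeR adjusted p = 1.76e-13) and the Notch ligand JAG1 3.65-fold (edgeR adjusted p = 1.57e-11). The ligand WNT5A fell 61.2-fold (edgeR adjusted p = 6.01e-12) and HMGA2, a chromatin protein known to activate SNAI1 and TWIST1, 12.9-fold (edgeR adjusted p = 7.28e-15).

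Among 19 tested transcription factors linked to EMT outside the 9, 7 rose and 9 fell in MCF10Ca1a against MCF10A (median log2 -0.11), beside 39% and 41.9% of all tested genes, 5 rose and 11 fell against MCF10AT1 (-0.81), beside 38% and 40.3%, and 9 rose and 7 fell in MCF10AT1 against MCF10A (0.11), beside 29.8% and 31.8%. The forkhead gene FOXQ1 rose from a mean of 1.56 TPM in MCF10A to 32.2 TPM in MCF10AT1 and 56.6 TPM in MCF10Ca1a (33.8-fold in MCF10Ca1a in the count test, edgeR adjusted p = 1.73e-15), and the epithelial factor ELF3 rose 33.1-fold in MCF10Ca1a (edgeR adjusted p = 8.11e-15). The cell-cycle factor FOXM1 fell 6.46-fold in MCF10Ca1a against MCF10A (edgeR adjusted p = 1.85e-13).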

How the data were processed

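Polyadenylated RNA was purified on columns and sequenced with a stranded kit, per the labels. The authors deposited estimated counts per gene, in unscaled, length-scaled and scaled form, TPM per gene, and estimated counts and TPM per transcript. The submitters' processing notes name Salmon and hg38; versions, the annotation and the strand setting are not given in the sources used here. The deposited estimated counts were rounded, filtered with filterByExpr by line (minimum count 10, total 15) and tested with edgeR 4.0.16 (R 4.3.3, quasi-likelihood, TMM, all 9 libraries in 1 fit, Benjamini-Hochberg adjustment). TPM values were used as deposited. Transcript shares were tested with limma 3.58.1 on log2((TPM + 0.1)/(rest + 0.1)), for transcripts of at least 0.5 TPM in a line and genes of at least 1 TPM. The tests were checked on simulated data. The labels do not say that the libraries came from separate cultures, so p-values measure only the spread between these libraries, which may be technical. No pair of libraries held identical values. Limits of 3 counts cover counting error only, since duplicate reads of 1 molecule were not told apart.

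Positions are from GENCODE 29 (GRCh38), promoters and microRNAs from RefSeq. 3′ UTRs are the longest per gene in GENCODE 29 and were searched on the sense strand, promoters on both strands. The members and lists were chosen with earlier results of these data known. The 2 lists of targets were as follows. Epithelial targets were CDH1, EPCAM, CRB3, PATJ, LLGL2, CLDN3, CLDN4, CLDN7, OCLN, TJP3, MARVELD2, MARVELD3, DSP, PKP1, PKP3, JUP, ESRP1, ESRP2, OVOL1, OVOL2, GRHL1, GRHL2, GRHL3, ST14, RAB25, MUC1, CDH3 and KRT18. Mesenchymal targets were CDH2, VIM, FN1, SPARC, MMP2, MMP9, CDH11, CDH5, ITGA5, LOX, LOXL2, ACTA2, TAGLN, COL1A1, COL1A2, COL3A1, COL5A2, POSTN, TNC, AXL, GAS1, THY1, FBN1 and S100A4, besides a gene not reported here. The rule for names took the 9 factors, CDH1, VIM, CDH2 and FN1, listed antisense and host RNAs, the 2 genes nearest in profile, and from each list the 2 largest rises and 2 largest falls among called genes whose higher line averaged 20 counts or more. The text gives these for MCF10Ca1a against MCF10A. CRB3, FOXL1, HDAC9, GTDC1, CLXN and the SNAI2 transcripts were picked after their values were seen.

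Alternatives tried were no filter, the Wald test of DESeq2 1.42.0, its size factors in edgeR, the length-scaled and scaled counts, a replicate block, limma on log2(TPM + 1) and log2(TPM + 0.1), only the lines compared, thinned counts and each library left out.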

Additional observations from a re-analysis of the deposited data

How the results depend on the processing

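Over 20 alternatives, 4 to 6 factors were called in MCF10AT1 against MCF10A and 7 to 8 in each comparison with MCF10Ca1a, where all 440 values of the single genes (the 7 tested factors, CDH1, VIM, CDH2 and FN1) kept their direction and call. In those comparisons sizes on log2(TPM + 1) were smaller for low genes, for example -0.42 in place of -1.53 for ZEB2 and -3.40 in place of -6.18 for FOXC2 against MCF10A. In MCF10AT1 against MCF10A SNAI1 was likewise 0.47 in place of 1.24 and TWIST1 0.28 in place of 0.49, both still called. A factor count can reach 8 because SNAI3 or PRRX1, left out by the main filter, was tested in some alternatives. The all-gene counts ran from 8892 to 11649, 12505 to 15312 and 12713 to 16050. The number of genes tested ran from 16227 to 32434 over the alternatives, so these counts do not share one base. MCF10Ca1a libraries were the shallowest, and thinning changed no call of a factor. SNAI3 and PRRX1 were too low for a firm statement.

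Sign changes arose only in MCF10AT1 against MCF10A, in values near 0, and their cause was not tested. CDH1 (-0.01) became 0.0058 without a filter, 0.0053 with thinned counts, 0.022 with only the lines compared, and -0.11 to 0.14 with a library left out. FOXC2 (0.14) became -0.049 on log2(TPM + 1), with and without a filter, and -0.053 on log2(TPM + 0.1). FN1 (0.03) became -0.083, -0.083 and -0.087 on these scales, and -0.062 to 0.19 with a library left out. CDH2 (0.23) passed without a filter (0.25, edgeR adjusted p = 0.0122) and with thinned counts (0.30, edgeR adjusted p = 0.0276). On log2(TPM + 1) the median of all genes moved to -0.09, 0.19 and 0.10 in the 3 comparisons.

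The count of factor transcripts with a changed share in MCF10AT1 against MCF10A was 1, and 0 with a share pseudocount of 0.01, with a transcript minimum of 0.1 TPM and with the replicate block. It ran from 0 to 1 with a library left out.

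With the replicate number as a block, 5, 7 and 7 factors were called as without it, all genes called were 10846, 13917 and 14397, and CDH1 in MCF10AT1 against MCF10A became 0.0015. Deviations of same-numbered libraries correlated between -0.0597 and 0.0451 in 9 pairs, so the numbers do not pair the libraries.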
